A study of Mus musculus with 13 samples.

Results

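The epidermal growth factor (EGF) family genes described here are 10 rows of the count table, found by gene symbol among 23366 rows. They are the ligand genes Ereg, Areg, Hbegf, Tgfa, Btc and Nrg1, the receptor genes Egfr, Erbb2 and Erbb3, and Errfi1, which encodes an inhibitor of the receptors. The group was chosen from these data, because Ereg stood lower in the dICR/dICR libraries, so differences between genotypes are given below as a description, and counts of calls in that contrast support nothing. All 10 genes passed the filter on low counts, as did 16537 genes in all. RNA was sequenced from primary cultures of mouse muscle cells of mixed strain background, isolated from hind limbs at postnatal days 2 to 3. Wild-type cells were profiled as myoblasts in growth medium with 10% calf serum and fibroblast growth factor (n = 4) and as myotubes (n = 5), kept for 24 hours in medium with 1% horse serum. Cells labelled dICR/dICR, which carry on both chromosomes a deletion of the imprinting control region of the H19 and Igf2 locus, were profiled as myoblasts (n = 2) and myotubes (n = 2). The labels do not say whether replicates were separate pups or cultures, so p-values measure the spread between these samples, which may be technical. H19 stood at 52.4 to 71.5 CPM (library-scaled counts, using TMM factors) in the 4 dICR/dICR libraries and at 2345 CPM or more in each wild-type library.

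EGF family ligands are made as membrane-anchored precursors and released by proteases of the ADAM family. Epiregulin (Ereg), amphiregulin (Areg), transforming growth factor alpha (Tgfa), betacellulin (Btc) and heparin-binding EGF (Hbegf) bind the EGF receptor, and neuregulin 1 (Nrg1) binds ErbB3 and ErbB4. ErbB2 has no known ligand of its own and pairs with the other receptors, and ErbB3 has little kinase activity and signals through its partner. In muscle the pathway is best known for neuregulin signals from nerve to muscle fibre, at the neuromuscular junction and in the muscle spindle.

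The libraries fall in 2 sets by total count, and the sets differ in the levels of several of these genes. The deep set has 7 libraries of 35563047 to 56441879 counts, namely wild-type myoblasts 1 and 2, wild-type myotubes 1 to 3 and both dICR/dICR myotubes. The shallow set has 6 libraries of 5312559 to 10912877 counts, namely wild-type myoblasts 3 and 4, wild-type myotubes 4 and 5 and both dICR/dICR myoblasts. The labels name an Illumina and a SOLiD instrument without tying either to single libraries. The sets were defined from the data, so wild-type differentiation and the genotype comparisons are also given within a set. Differentiation in dICR/dICR cells spans the sets and has no such value, nor has its difference from wild type. The myoblast markers Myod1 (185 to 1350 CPM) and Des (504 to 3830 CPM) were present in all 13 libraries. Defining markers of other cells stayed low: Sox10 of Schwann cells reached 0.923 CPM, Ptprc of leukocytes 0.919 CPM, Epcam of epithelium 1.17 CPM and Cdh5 of endothelium 1.22 CPM. The 12 differentiated muscle markers averaged 6.80 and 6.82 log2 CPM in wild-type myoblasts 1 and 2, 8.955 and 9.07 in 3 and 4, and 10.05 to 11.01 in the wild-type myotubes. The 12 proliferation markers averaged 7.61 and 7.57 log2 CPM in wild-type myoblasts 1 and 2, 6.07 and 5.95 in 3 and 4, 6.36 in wild-type myotube 2, and 2.24 to 3.90 in the other wild-type myotubes.

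**Figure D1:**
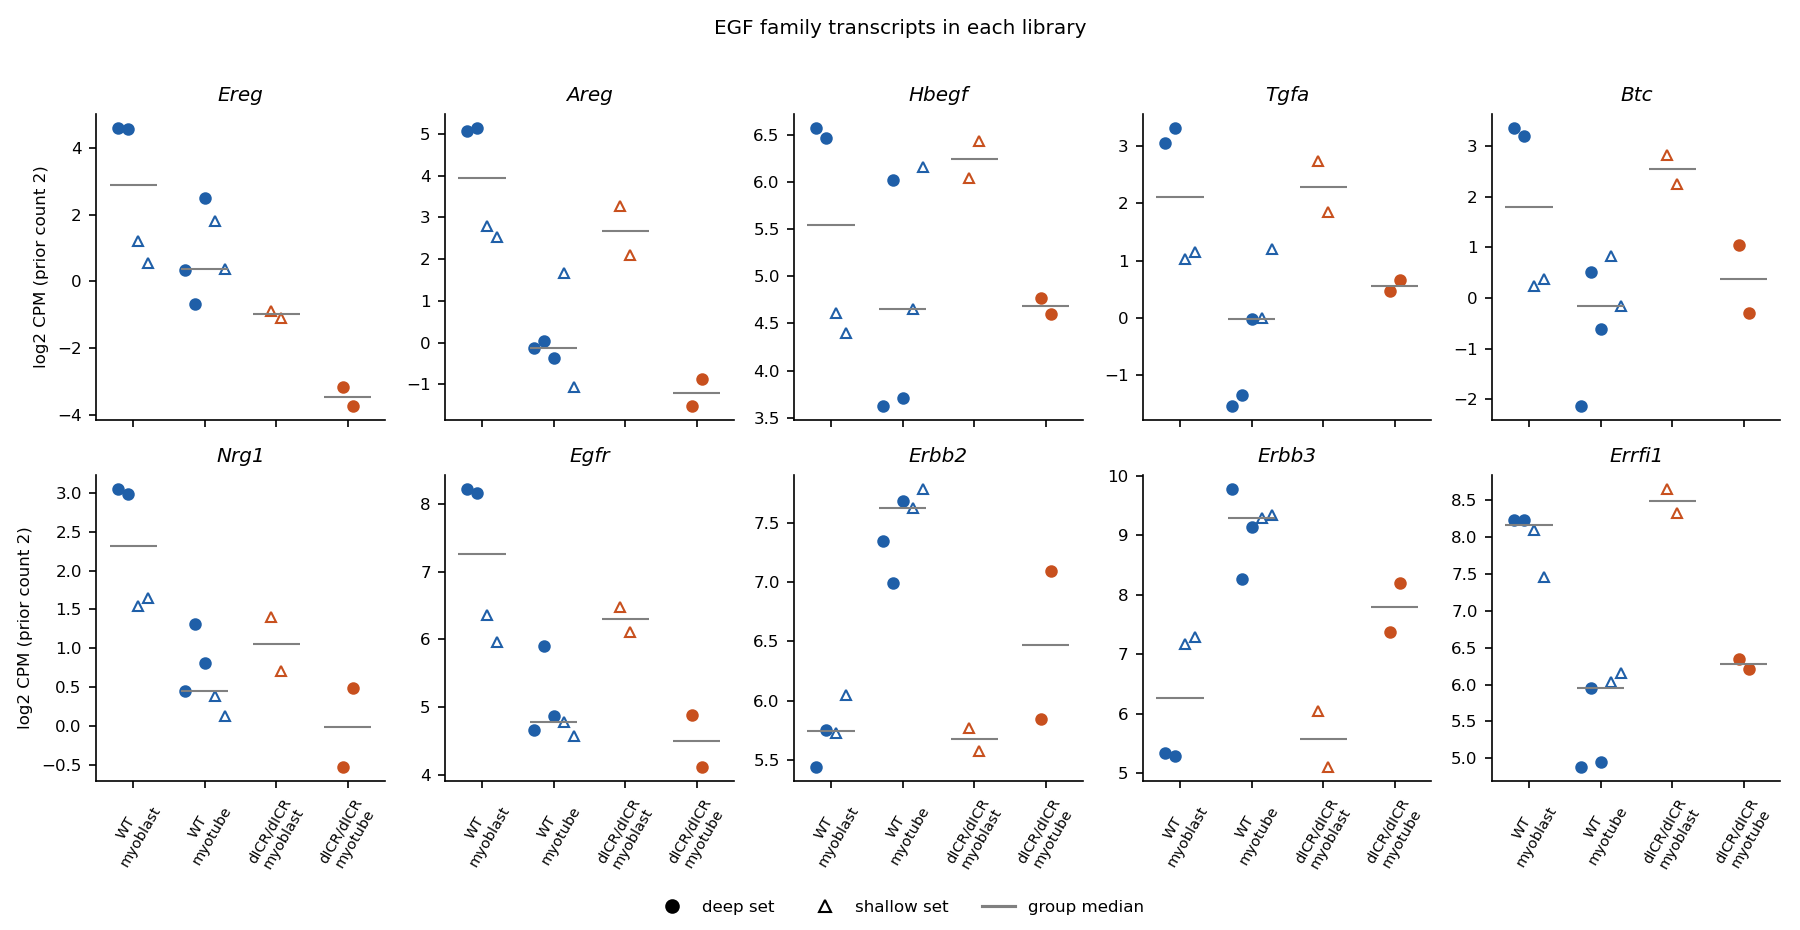
Level of each gene in each of the 13 libraries, as log2 CPM with a prior count of 2, by group. Each point is a library, filled circles are the deep set, open triangles the shallow set, and grey lines are group medians. Erbb2 and Erbb3 are higher in all 5 wild-type myotubes than in all 4 wild-type myoblasts, Egfr and Errfi1 are lower, and Ereg is lowest in the dICR/dICR myotubes.

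The comparison of wild-type myotubes with wild-type myoblasts asks how the family changes as muscle cells differentiate. The stated reason for choosing the genes was the genotype difference of Ereg, though results of this comparison were known as well. The receptor genes moved in opposite directions: Egfr fell, while Erbb2 and Erbb3 rose. The ligand genes Areg, Tgfa, Btc and Nrg1 fell, as did Errfi1. In all, 8 of the 10 genes passed the test (adjusted p under 0.05), 6 lower and 2 higher. Over all genes tested 19.1% passed, 10.2% lower and 8.86% higher. Of all calls 53.6% were lower, or 78.4% with scaling by library size alone, which shifted the median of all genes by -0.27 and turned none of the 10 genes. The median log2 fold change was -2.38 over the 10 genes and 0.02 over all genes. In bulk RNA, fewer cells of a type and less RNA per cell cannot be told apart.

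To show the region just before the genes that moved in opposite directions, the sequence from 250 bases before to 50 bases after the gene start is printed for Areg and Egfr, which fell, and Erbb2, which rose. The sequences are from RefSeq on assembly GRCm38.p6 and read 5′ to 3′ on the strand of the gene, at chr5:91139349-91139648 (+) for Areg, chr11:16751953-16752252 (+) for Egfr and chr11:98412234-98412533 (+) for Erbb2. Capitals mark matches on either strand to the E-box CANNTG, which myogenic factors bind, the AP-1 site TGANTCA, the cyclic AMP response element (CRE) TGACGTCA and the GC box GGGCGG.
Areg: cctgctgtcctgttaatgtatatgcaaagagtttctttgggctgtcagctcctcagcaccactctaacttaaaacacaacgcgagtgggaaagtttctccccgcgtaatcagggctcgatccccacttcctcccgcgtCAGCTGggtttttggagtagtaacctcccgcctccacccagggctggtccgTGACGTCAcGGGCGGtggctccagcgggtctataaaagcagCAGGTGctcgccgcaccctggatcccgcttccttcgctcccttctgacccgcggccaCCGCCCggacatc
Egfr: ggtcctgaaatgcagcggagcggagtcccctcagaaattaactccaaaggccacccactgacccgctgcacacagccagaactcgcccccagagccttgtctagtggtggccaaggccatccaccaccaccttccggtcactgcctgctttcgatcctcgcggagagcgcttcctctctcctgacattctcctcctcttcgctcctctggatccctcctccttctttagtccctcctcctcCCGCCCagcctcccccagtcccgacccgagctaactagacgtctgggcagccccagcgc
Erbb2: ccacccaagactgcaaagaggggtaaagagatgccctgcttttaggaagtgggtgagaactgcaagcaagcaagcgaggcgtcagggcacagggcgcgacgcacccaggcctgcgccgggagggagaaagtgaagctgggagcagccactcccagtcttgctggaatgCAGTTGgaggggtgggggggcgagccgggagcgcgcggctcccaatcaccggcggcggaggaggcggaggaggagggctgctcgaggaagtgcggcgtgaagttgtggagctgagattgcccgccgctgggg
The Areg window holds 2 E-boxes, 1 CRE and 2 GC boxes. The Egfr window holds 1 GC box, and the Erbb2 window 1 E-box. No match in these windows overlaps another. Of 32851 mouse promoter windows of the same length, 72.3% hold an E-box, 35.7% a GC box, 7.81% an AP-1 site and 1.79% a CRE. RefSeq windows were matched for 6 of the 10 genes.

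Among the ligands, wild-type myoblasts 1 to 4 held 33.7, 35.3, 6.91 and 5.67 CPM of Areg. In wild-type myotubes 1 to 5 it stood at 0.838, 0.954, 0.697, 3.08 and 0.407 CPM. All myotube values lay below all myoblast values, and the log2 fold change was -4.17 ± 0.71 (SE, with an adjusted p of 0.00287 by the quasi-likelihood test of edgeR). Tgfa stood at 8.28, 9.95, 1.97 and 2.14 CPM in myoblasts and 0.267, 0.318, 0.914, 0.923 and 2.24 CPM in myotubes. Its groups overlapped through myotube 5, and its log2 fold change was -2.77 ± 0.68 (edgeR, adjusted p = 0.0159). Btc stood at 10.2, 9.09, 1.11 and 1.23 CPM in myoblasts and 0.152, 1.36, 0.577, 1.69 and 0.815 CPM in myotubes, overlapping through myotubes 2 and 4. Its log2 fold change was -2.64 ± 0.78 (adjusted p = 0.0346, edgeR). Nrg1 stood at 8.26, 7.87, 2.84 and 3.06 CPM in myoblasts and 1.30, 2.40, 1.68, 1.23 and 1.02 CPM in myotubes. The Nrg1 groups did not overlap, and it fell by 1.83 ± 0.44 (adjusted p = 0.0136, edgeR).

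The other two ligand genes did not pass over all libraries. Wild-type myoblasts 1 and 2 held 24.2 and 23.7 CPM of Ereg, myoblasts 3 and 4 only 2.22 and 1.38 CPM. The myotubes held 1.18, 0.549, 5.60, 3.39 and 1.22 CPM, so the deep myoblasts stood apart and the shallow ones lay inside the range of the myotubes. The log2 fold change of Ereg was -2.43 ± 0.88 (adjusted p = 0.0727, edgeR). Hbegf stood at 94.98, 88.0, 24.4 and 21.0 CPM in myoblasts and 12.2, 65.0, 13.0, 25.1 and 71.1 CPM in myotubes. Its groups overlapped widely, with myotubes 2 and 5 far above myotubes 1 and 3, and its log2 fold change was -0.63 ± 0.60 (adjusted p = 0.516, edgeR).

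For Egfr, the receptor of most of these ligands, wild-type myoblasts 1 to 4 held 299.7, 286, 81.8 and 62.0 CPM. In wild-type myotubes 1 to 5 it stood at 25.3, 59.7, 29.2, 27.4 and 23.8 CPM. The groups did not overlap, although myotube 2 came within a few CPM of myoblast 4, and the log2 fold change was -2.46 ± 0.48 (adjusted p = 0.00544, edgeR). Erbb2 stood at 43.4, 54.0, 52.9 and 66.0 CPM in myoblasts and 162, 127, 206, 197 and 221 CPM in myotubes. The depth sets were mixed within each Erbb2 group, and it rose by 1.76 ± 0.27 (adjusted p = 0.00171, edgeR). Erbb3 stood at 40.5, 39.2, 145 and 156 CPM in myoblasts and 884, 307, 567, 624 and 650 CPM in myotubes. Every myotube lay above every myoblast, with the shallow myoblasts between the deep myoblasts and the myotubes, and Erbb3 rose by 2.67 ± 0.51 (adjusted p = 0.00495, edgeR).

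Per kilobase of exon, the order of the receptors was the same in all wild-type myotubes and differed between the depth sets in wild-type myoblasts. In wild-type myotubes Erbb3 held a median of 104 CPM per kilobase (51.0 to 147), Erbb2 37.9 (24.4 to 42.4) and Egfr 2.42 (2.10 to 5.27), with no overlap between the 3 ranges. The shallow wild-type myoblasts had the same order, with Erbb3 at 24.1 and 25.9, Erbb2 at 10.2 and 12.7 and Egfr at 7.22 and 5.48 CPM per kilobase. In the deep wild-type myoblasts Egfr was highest, at 26.5 and 25.2, above Erbb2 at 8.33 and 10.4 and Erbb3 at 6.73 and 6.52 CPM per kilobase. Among the ligands of wild-type myoblasts, Areg (median 16.7 CPM per kilobase) and Hbegf (11.6) stood above Ereg (3.15), Btc (1.14), Tgfa (0.803) and Nrg1 (0.528). Ereg ranged from 0.334 to 5.86 CPM per kilobase and overlapped each of the others, and Areg (4.67 to 29.0) overlapped Hbegf (4.34 to 19.6). In wild-type myotubes Hbegf, at 2.53 to 14.7 CPM per kilobase, reached down to the highest Areg value (2.53) and lay above the other ligands, whose medians ran from 0.125 for Nrg1 to 0.690 for Areg. Exon lengths are the union of exons in GENCODE release M21, a later assembly than the mm9 assembly of the counts.

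Errfi1 encodes MIG6, a cytosolic protein that binds the kinase domain of activated EGF receptors and is itself induced by their signalling. Its level was 297, 298, 271 and 174 CPM in wild-type myoblasts 1 to 4 and 29.5, 62.1, 30.9, 65.6 and 71.5 CPM in wild-type myotubes 1 to 5. Both depth sets showed the drop, with no overlap, and the log2 fold change was -2.33 ± 0.30 (adjusted p = 0.000822, edgeR).

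Within the deep set the direction was the same for all 10 genes as over all libraries, and 9 passed, with 29.1% of all genes passing there. Ereg was the gene gained, at -3.28 ± 0.77 (adjusted p = 0.00853, edgeR), and Areg was lowest, at -5.37 ± 0.56. Within the shallow set 4 passed, against 6.98% of all genes: Egfr (-1.49 ± 0.40), Errfi1 (-1.70 ± 0.35), Erbb2 (1.81 ± 0.36) and Erbb3 (2.08 ± 0.45). The ligands there were Areg at -1.79 ± 0.64, Nrg1 at -1.38 ± 0.54, Tgfa at -0.41 ± 0.67, Btc at 0.14 ± 0.89, Ereg at 0.37 ± 0.97 and Hbegf at 1.08 ± 0.71, none past the threshold. The difference between the changes of the sets passed for 0 of the 10 genes (edgeR, 6 group means) and for 0.435% of all genes. At an unadjusted p under 0.05 it was met by Ereg, Areg, Hbegf, Tgfa, Btc, Egfr, Erbb3 and Errfi1, but not by Nrg1 or Erbb2, against 12.3% of all genes. The smallest adjusted p of the 10 was 0.0959, for Tgfa, whose change was higher by 3.74 ± 0.86 in the shallow set. Muscle differentiation and proliferation markers also differed between the myoblasts of the sets, as given above, and their part in this was not tested. The Y-linked gene Ddx3y stood at 27.6 CPM or more in each deep wild-type library and 0.462 CPM or less in each shallow one. In wild type, depth set and the sex makeup of the cultures therefore cannot be told apart. With the depth set as a term in the model the same 8 genes passed, among 31.8% of all genes.

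Btc lost its call without any 1 of wild-type myoblasts 1 or 2 or wild-type myotubes 1, 3 or 5, and Tgfa without wild-type myoblast 2 (adjusted p = 0.0559, edgeR). Ereg gained one without wild-type myoblast 3 or 4 (-2.77 and -2.79). The other calls among the 10 genes held with each library left out in turn.

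**Figure D2:**
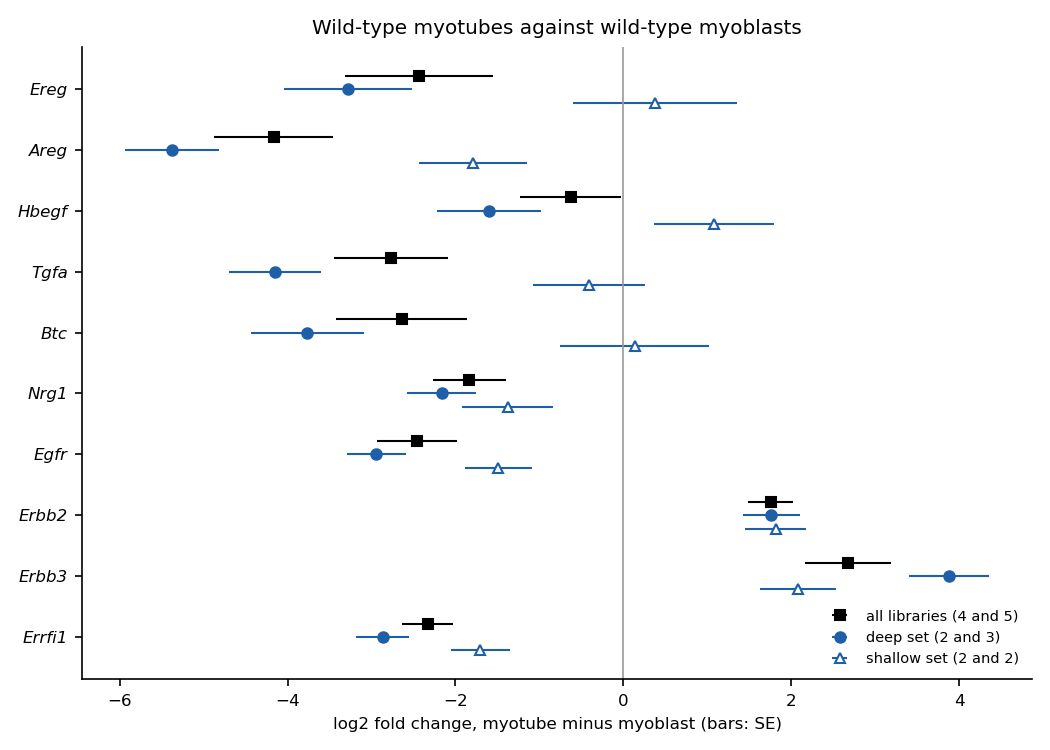
Log2 fold change of each gene in wild-type myotubes against wild-type myoblasts, with standard errors, over all libraries (squares, 4 against 5), within the deep set (circles, 2 against 3) and within the shallow set (triangles, 2 against 2). Egfr and Errfi1 lie below 0 and Erbb2 and Erbb3 above 0 in all 3 fits, while Ereg, Hbegf and Btc change sign between the sets.

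Other genes of the pathway were taken from lists written from textbook knowledge. Their counts stand beside 8.86% of all genes higher and 10.2% lower, and nothing particular to a list is read from them. Of the 6 remaining ligand and receptor genes, 5 passed the filter and 1 was called in wild-type differentiation: Nrg2, a neuregulin gene, fell by 2.86 ± 0.53 (adjusted p = 0.00444, edgeR), from a mean of 0.858 to 0.131 CPM. The receptor gene Erbb4 averaged 0.628 CPM in wild-type myoblasts and 1.11 CPM in wild-type myotubes and did not pass. Of 8 genes for ligand release 2 rose, the rhomboid pseudoprotease gene Rhbdf1 (1.33 ± 0.25), which guides ADAM17 traffic, and Timp3 (2.31 ± 0.73), an inhibitor of ADAM17. The list median was 0.38 against 0.02 over all genes.

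Of 33 tested adaptors and signal carriers, 7 rose and 3 fell, with a median of 0.32. The adaptor genes Gab2 (1.46 ± 0.22) and Grb2 (0.86 ± 0.26), the transcription factor gene Stat3 (1.16 ± 0.25) and the RAF kinase gene Araf (0.79 ± 0.20) were among the 7. Eps8, an EGF receptor substrate that acts on actin, fell by 4.66 ± 0.62 (adjusted p = 0.000977, edgeR), and Src (-1.24 ± 0.19) and the ERK1 gene Mapk3 (-1.10 ± 0.31) also fell. Of 20 genes that restrain the pathway, 6 fell and 1 rose, with a median of -0.03. The ERK phosphatase genes Dusp4 (-2.50 ± 0.17) and Dusp6 (-2.75 ± 0.53), the feedback inhibitor gene Spry2 (-1.86 ± 0.38) and the RAS GTPase-activating gene Rasa1 (-1.56 ± 0.38) fell, while Spry1 rose by 2.47 ± 0.36. Of 25 genes known to be induced downstream of the receptor and ERK, 6 fell and 2 rose, with a median of -0.63. The ETS factor gene Etv4 (-4.48 ± 0.65), the chromatin protein gene Hmga2 (-4.37 ± 0.71), the AP-1 subunit gene Fosl1 (-3.59 ± 0.66) and the urokinase receptor gene Plaur (-3.20 ± 0.59) fell, and Egr2 (2.48 ± 0.78) and the cytokine gene Lif (1.51 ± 0.40) rose. The size of the change differed between the depth sets for Eps8 (higher by 3.25 ± 0.60 in the shallow set, adjusted p = 0.0464, edgeR) and Hmga2 (2.17 ± 0.36, adjusted p = 0.043), both negative in each set. Of the 25, 9 fell and 0 rose within the deep set, and 2 fell and 2 rose within the shallow set. Over all 16537 genes tested, 2435 fell and 2369 rose within the deep set, and 538 fell and 616 rose within the shallow set. In dICR/dICR differentiation the 5 lists held 1 call, Dusp4 (-2.68 ± 0.27, adjusted p = 0.00472, edgeR).

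Differentiation in dICR/dICR cells was measured between shallow myoblasts and deep myotubes, so stage and depth set cannot be told apart without the wild-type libraries. Errfi1 stood at 401 and 320 CPM in dICR/dICR myoblasts and 80.9 and 74.2 CPM in dICR/dICR myotubes. Egfr went from 89.4 and 69.1 to 29.5 and 17.3 CPM, and Areg from 9.54 and 4.17 to 0.272 and 0.475 CPM. Erbb3 stood at 66.2 and 34.4 CPM in myoblasts and 166 and 295 CPM in myotubes. For these 4 genes the myoblasts and myotubes lay on the same sides as in wild type. The dICR/dICR myoblasts and myotubes did not overlap for any of the 10 genes. The share of all genes that separate in this way was not counted, so nothing is read from it. Erbb2 went from 54.6 and 47.7 to 57.6 and 136 CPM, the first myotube library lying close to the myoblasts. Over all libraries 0 of the 10 genes passed (edgeR), against 0.145% of all genes, and 6 had an unadjusted p under 0.05, namely Ereg, Areg, Egfr, Erbb2, Erbb3 and Errfi1. Over all genes 19.2% had such a p. The other log2 fold changes included Hbegf at -1.57 ± 0.92, Tgfa at -1.86 ± 0.97, Btc at -2.10 ± 1.14 and Nrg1 at -1.10 ± 0.66. The smallest adjusted p was that of Errfi1, at -2.22 ± 0.46 on the log2 scale (edgeR, adjusted p = 0.0698). With the depth set as a term 5 passed, against 7.63% of all genes: Areg (-4.92 ± 1.22), Nrg1 (-2.18 ± 0.62), Egfr (-2.99 ± 0.60) and Errfi1 (-1.996 ± 0.50) fell and Erbb3 rose by 3.15 ± 0.72. That term rests on the wild-type libraries alone and is held equal at both stages. In wild-type myoblasts the log2 difference, deep minus shallow, was 2.45, 1.45, 2.02, 0.42 and -1.92 for these 5 genes in that order. In wild-type myotubes it was -1.13, 0.66, 0.57, -0.75 and -0.12. Stage and depth set are thus not fully separated in these 5 calls. DESeq2 called Areg and Errfi1 among 1199 of all genes, and limma voom called Errfi1 among 98, where the main fit called 24.

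The difference between the differentiation changes of the genotypes passed for 0 of the 10 genes (edgeR), and 0% of all genes passed. None of the 10 had an unadjusted p under 0.05, against 9.94% of all genes. DESeq2 and limma voom also called 0 of them, where they called 72 and 0 of all genes. The widest values were Ereg at -1.73 ± 1.94, Hbegf at -0.94 ± 1.09, Tgfa at 0.91 ± 1.15 and Erbb2 at -0.84 ± 0.46. Nrg1 stood at 0.73 ± 0.79, Egfr at 0.70 ± 0.84, Btc at 0.54 ± 1.33 and Erbb3 at -0.48 ± 0.84. Errfi1 (0.11 ± 0.53) and Areg (-0.03 ± 0.87) lay nearest 0. With standard errors of this size, a difference of several fold between genotypes was not detectable for most of these genes.

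Differences between genotypes are a description here, since the group was chosen on Ereg in this contrast. Ereg stood at 0.469 and 0.391 CPM in dICR/dICR myoblasts, from 6 and 3 counts, and at 0.0363 and 0 CPM in dICR/dICR myotubes, from 2 and 0 counts. Each dICR/dICR library thus held less Ereg than each wild-type library. The lowest wild-type value was 0.549 CPM, in wild-type myotube 2. In the shallow set the wild-type myoblasts held 2.22 and 1.38 CPM from 18 and 9 counts, and the pooled dICR/dICR level was 23.8% of theirs (95% exact interval 9.86 to 52.2%, counting error only). Over all libraries it was 2.07% (0.945 to 3.93%), the deep wild-type myoblasts 1 and 2 holding 1297 and 1222 of the 2546 wild-type counts. In deep myotubes the pooled dICR/dICR level was 0.745% of wild type (0.0898 to 2.72%), where wild-type myotube 3 holds 233 of 283 wild-type counts. Without wild-type myotube 3 it was 2.505% (0.295 to 9.53%). All these intervals treat pooled counts as the only source of error and leave out the spread between libraries. As the group was chosen on this difference, they support nothing about genotype. Ereg shares 3.42% of its exon length with Gm19610, an RNA on the other strand, as Tgfa does 1.82% with Gm43917, Nrg1 4.66% with Gm26578 and Erbb2 0.173% with Mien1. Whether counting used strand is not stated in the labels, so reads of these pairs may not be told apart.

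Among its neighbours, Ereg was the ligand gene whose dICR/dICR libraries all lay below all wild-type libraries. Epgn, Ereg, Areg and Btc follow each other as protein-coding genes along mouse chromosome 5 in the RefSeq annotation. In deep myotubes, where Ereg was near 0 in dICR/dICR, Areg held 0.272 and 0.475 CPM against 0.697 to 0.954 CPM in wild type. Btc held 2.00 and 0.737 CPM in the same dICR/dICR libraries against 0.152 to 1.36 CPM, overlapping wild type. In shallow myoblasts Btc was higher in dICR/dICR, at 7.04 and 4.69 CPM against 1.11 and 1.23 CPM, and Areg overlapped, at 9.54 and 4.17 CPM against 6.91 and 5.67 CPM. Epgn averaged 0.391 CPM or less in every group.

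Within a depth set, the other members fell to either side. Hbegf held 65.7 and 86.4 CPM in dICR/dICR myoblasts against 24.4 and 21.0 CPM in shallow wild-type myoblasts, a log2 difference of 1.74 ± 0.72. In deep myotubes it held 27.2 and 24.2 CPM against 12.2, 65.0 and 13.0 CPM, inside the wild-type range. Tgfa held 6.64 and 3.52 CPM against 1.97 and 2.14 CPM in shallow myoblasts and 1.31 and 1.497 CPM against 0.267 to 0.914 CPM in deep myotubes. Tgfa thus lay above its wild-type set at both stages, with differences of 1.31 ± 0.61 and 1.45 ± 0.53. The share of all genes that separate by genotype in this way was not counted. Nrg1 differed by -0.49 ± 0.49 and -0.89 ± 0.43, with 2.58 and 1.56 CPM in dICR/dICR myoblasts and 0.618 and 1.33 CPM in dICR/dICR myotubes.

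Of the receptors, Erbb3 lay below its wild-type set at both stages. It held 66.2 and 34.4 CPM in dICR/dICR myoblasts against 145 and 156 CPM in shallow wild-type myoblasts, a difference of -1.58 ± 0.45. In deep myotubes it held 166 and 295 CPM against 884, 307 and 567 CPM, a difference of -1.35 ± 0.42. Erbb2 held 57.6 and 136 CPM in dICR/dICR myotubes against 162, 127 and 206 CPM, a difference of -0.77 ± 0.32 with overlap, and -0.22 ± 0.35 in shallow myoblasts. Egfr differed by 0.14 ± 0.38 in shallow myoblasts and -0.70 ± 0.35 in deep myotubes. Errfi1 lay above its wild-type set at both stages, with 401 and 320 CPM against 271 and 174 CPM and 80.9 and 74.2 CPM against 29.5, 62.1 and 30.9 CPM. Its differences were 0.69 ± 0.34 and 0.92 ± 0.31.

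Over all libraries none of the 10 genes was called between genotypes, against 0.0302% of all genes in myoblasts and 0.556% in myotubes. Within a set none was called in shallow myoblasts, where 5.25% of all genes were, and 1 in deep myotubes, Ereg, where 3.63% of all genes were. Nothing is read from these counts, or from members lying wholly to 1 side of wild type, because the group was chosen on this contrast.

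**Figure D3:**
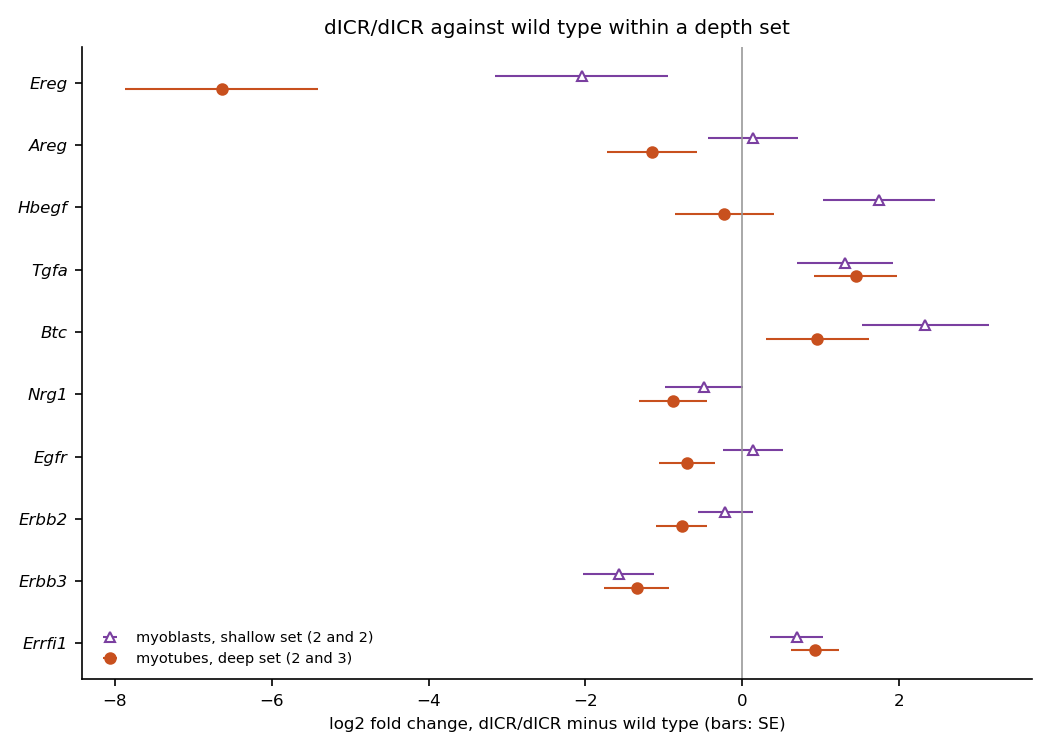
Log2 difference between dICR/dICR and wild type for each gene, with standard errors, in myoblasts of the shallow set (triangles, 2 against 2) and myotubes of the deep set (circles, 2 against 3). Ereg is lowest at both stages, and its myotube value rests on 2 counts and depends on the prior count. Erbb3 lies below 0 and Tgfa and Errfi1 above 0 at both stages.

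Muscle and proliferation markers moved with these differences. The differentiated muscle markers averaged 7.20 and 6.29 log2 CPM in dICR/dICR myoblasts and 8.90 and 9.70 in dICR/dICR myotubes. These means lay below those of the wild-type libraries of the same set and stage. The proliferation markers averaged 7.15 and 7.38 in dICR/dICR myoblasts and 7.58 and 6.42 in dICR/dICR myotubes. These means lay above those of the wild-type libraries of the same set and stage, though wild-type myotube 2 came close at 6.36. Their part in the differences of Erbb3, Errfi1 and the ligands was not tested. Across the 13 libraries, Erbb3 was lowest in the 4 libraries with the lowest differentiated marker means and highest in the wild-type myotubes. The group was chosen on Ereg being low in the dICR/dICR libraries, so nothing about the markers is read from its levels there. Wild-type myoblasts 3 and 4 held 0.247 and 0.153 CPM of the Y-linked gene Ddx3y, and the dICR/dICR myoblasts 14.5 and 63.1 CPM, so genotype and the sex makeup of the cultures cannot be told apart within shallow myoblasts. Schwann cell markers, relevant as these cells express Erbb3, summed to 7.58 to 39.7 CPM in wild-type myotubes and 52.7 to 90.6 CPM in dICR/dICR myotubes. They summed to 9.36 to 18.6 CPM in wild-type and 20.6 to 37.0 CPM in dICR/dICR myoblasts, with 6 to 10 of the 10 markers counted in each library. Their mean log2 CPM overlapped in myotubes, at -1.79 to 0.92 in wild type and -0.85 to -0.25 in dICR/dICR. In myoblasts this mean was -1.17 to -0.40 in wild type and -0.28 to 0.08 in dICR/dICR. The myotube sums thus differ through some of the markers, not the list as a whole. Macrophage markers, relevant as these cells express Hbegf and Areg, summed to 4.19 to 15.6 CPM over the 4 groups, and epithelial markers to 1.79 to 27.1 CPM. Fibroblast markers summed to 430.6 to 494.5 CPM in wild-type myoblasts, 342 to 1228 CPM in wild-type myotubes, 217 to 434 CPM in dICR/dICR myoblasts and 168 to 469 CPM in dICR/dICR myotubes.

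**Figure D4:**
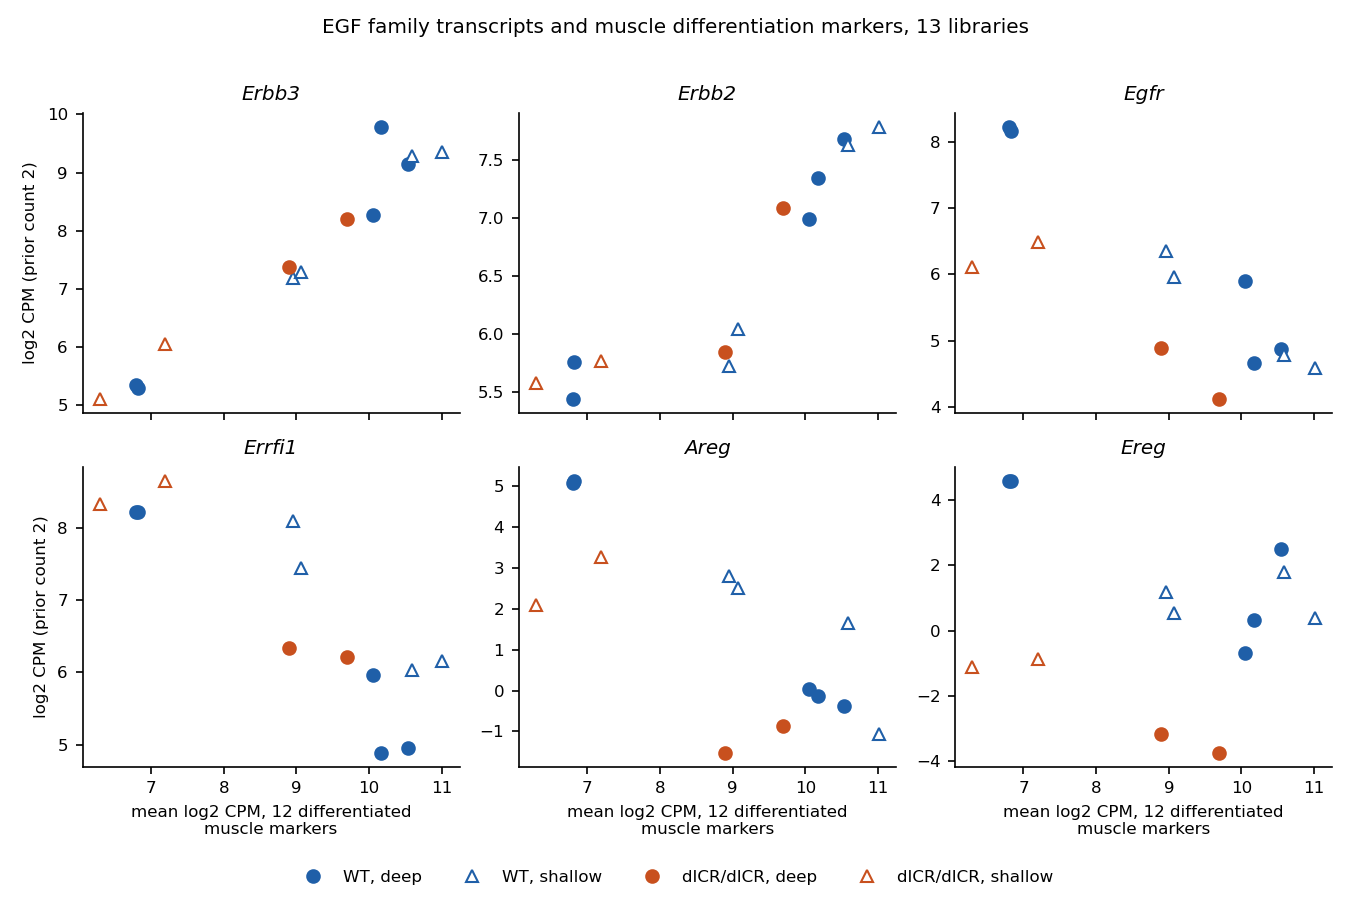
Level of 6 genes (log2 CPM, prior count 2) against the mean log2 CPM of 12 differentiated muscle markers in the 13 libraries. Blue is wild type, orange is dICR/dICR, circles are the deep set and triangles the shallow set. Erbb3 is highest in the 5 wild-type myotubes, which have the highest marker means. For Ereg, on which the group was chosen, the 4 dICR/dICR libraries lie below all 9 wild-type libraries.

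Among pathway genes outside the group, none of the 5 lists held a call between genotypes over all libraries. Within shallow myoblasts Eps8 (2.85 ± 0.45, adjusted p = 0.00808, edgeR), Rasa1 (1.20 ± 0.28), Etv4 (1.99 ± 0.51), Hmga2 (1.46 ± 0.27) and Klf6 (1.20 ± 0.23) were higher in dICR/dICR, and Pik3r3 (-1.34 ± 0.32), a subunit of PI3 kinase, was lower. Within deep myotubes Eps8 (3.32 ± 0.39, adjusted p = 0.00166, edgeR) and Hmga2 (1.56 ± 0.23) were higher and Spry1 (-1.77 ± 0.42) was lower. These within-set fits were added after the data were seen. The comparisons of genotype within a set and of differentiation share their wild-type libraries.

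The 5 genes whose log2 CPM was most like that of Ereg across the 13 libraries were Sgsm1 (Pearson r = 0.94), Ddah1 (0.92), Tmem141 (0.92), Ripk4 (0.91) and Negr1 (0.90). These r values describe libraries that share depth set, stage and genotype. Within the 7 deep libraries r was 0.96, 0.96, 0.98, 0.98 and 0.96, and within the 6 shallow ones 0.88, 0.51, 0.82, 0.87 and 0.54. Sgsm1, at 3.17 and 3.56 CPM in deep wild-type myoblasts, stood at 0.0182 and 0 CPM in the dICR/dICR myotubes. Of the EGF family, Nrg1 (r = 0.73), Areg (0.68) and Egfr (0.65) ranked 156th, 248th and 329th of 16536 genes. The other members ranked from 1851st for Tgfa to 12710th for Erbb3. Within the shallow set r was -0.17 for Areg, -0.11 for Nrg1, -0.49 for Egfr, -0.67 for Errfi1, -0.75 for Btc, -0.81 for Hbegf, -0.90 for Tgfa, 0.55 for Erbb2 and 0.78 for Erbb3.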

How the data were processed

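The authors deposited raw counts per gene for the 13 libraries, not normalised. TopHat2, HTSeq and the mm9 assembly are named, per the submitters' processing notes, while their versions, the annotation and the use of strand are not stated there. Per the labels' protocols, RNA of integrity number above 9 was depleted of ribosomal RNA. Total counts ran from 5312559 to 56441879, so low genes such as Ereg rest on few counts in the shallow libraries.

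Counts were analysed in R 4.3.3 with edgeR 4.0.16. Genes were filtered with filterByExpr by group (minimum count 10, minimum total 15) and scaled by TMM, and a quasi-likelihood model took 4 means, 1 per group, over the 13 libraries. Tests are two-sided, with Benjamini-Hochberg adjustment over 16537 genes. A standard error is the log2 fold change divided by the root of the F statistic. Values within a depth set (above or below 20 M counts) come from 1 fit with 6 means, added after the data were seen. Alternatives were DESeq2 1.42.0, limma 3.58.1 voom, other scalings and filters, a replicate block, the depth set as a term or alone, and leaving out each library. Chi-square per degree of freedom between replicate libraries was 4.674 to 368.8, so none repeats another. The fits were tested on simulated data that held no difference between depth sets, so its effect on the calls was not tested. Changes of 4 fold were recovered in 52% of changed genes for wild-type and 13% for dICR/dICR differentiation. For the difference between these it was 4%, and for genotype 26% in myoblasts and 27% in myotubes. Changes of 8 fold were recovered in 27% to 90%.

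The named genes are the 10 members, pathway genes called in wild-type differentiation with the same sign in both depth sets (up to 4 per list and direction), pathway genes called between genotypes (up to 4 per list), and the 5 genes most like Ereg by Pearson r. Erbb4 and Epgn were named beyond this rule, after their values were seen. Some genes of the lists are not reported here by name. The members and lists were chosen with earlier results of these data known.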

Additional observations from a re-analysis of the deposited data

Results flagged for a closer look

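In groups of 4 or 5 libraries, 2 of 20 gene and group combinations held a library far from the others by Dixon's test at the 95% level, which chance gives in about 1 of 20. Wild-type myotube 2 held 59.7 CPM of Egfr against 23.8 to 29.2 CPM in the other wild-type myotubes, and wild-type myotube 4 held 3.08 CPM of Areg against 0.407 to 0.954 CPM. Proliferation markers averaged 6.36 log2 CPM in wild-type myotube 2 and at most 3.90 in the other wild-type myotubes, and their part in the Egfr value was not tested.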

How the results depend on the processing

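Of the 10 genes, 8 were called in wild-type differentiation. The count was 4 in the shallow set alone and 4 within the shallow set in the fit with 6 means, 7 to 9 under the 10 other settings, and 6 to 9 with 1 library left out. In the shallow set alone Ereg, Hbegf and Btc turned to 0.37, 1.07 and 0.14 on the log2 scale, and in the fit with 6 means to 0.37, 1.08 and 0.14. The cause was not tested. Egfr, Erbb2, Erbb3 and Errfi1 kept direction and call under all 25 alternatives. Over all genes the count of calls was 3158, from 1154 to 5267 under other settings and 1769 to 3574 with 1 library left out, the lowest being 1833 and 1769 without wild-type myoblast 1 or 2. With library size alone 78.4% of the calls were lower against 53.6%, and the median of all genes shifted by -0.27.

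In dICR/dICR differentiation 0 of the 10 were called. Once depth set was a term, held equal at both stages, 5 were called among 1262 of all genes. DESeq2 called 2 among 1199 of all genes, and limma voom 1 among 98. With a wild-type library left out 0 to 1 of the 10 were called. Without 1 dICR/dICR library the other is assumed to vary like the wild-type groups. Over all genes 24 were called, from 22 to 1262 under other settings and 0 to 78 with 1 left out, 0 when dICR/dICR myoblast 1 and 78 when wild-type myotube 3 was left out, where Errfi1 was the 1 call. For the difference between genotypes in differentiation, 0 were called under all settings, and small values changed sign. Errfi1 was -0.074 with DESeq2 size factors, -0.072 by DESeq2 and -0.054 with a filter of 1 CPM in 2 libraries. Areg was 0.31 by limma voom and 0.14 without a filter, and Btc -0.028 with the replicate block. With the depth set as a term Btc was -0.66, Nrg1 -0.30, Egfr -0.67 and Erbb3 0.10. With 1 library left out Areg ran from -0.49 to 0.70, Btc from -0.36 to 1.07, Erbb3 from -0.96 to 0.075 and Errfi1 from -0.10 to 0.29.

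Between genotypes DESeq2 called 464 of all genes in myoblasts and 1120 in myotubes. The shallow set alone called 2589 in myoblasts. In myotubes the depth set term called 425, and the fit within the deep set 601. For genotype in myoblasts the 10 genes held 0 calls, 3 in the shallow set alone and 1 by DESeq2. In myotubes they held 0, and 1 each by DESeq2, in the fit with a depth set term and within the deep set, and 0 to 1 with a library left out, the 1 without wild-type myotube 2. Over all genes these contrasts called 5 (0 to 2589) and 92 (1 to 1120), the latter 1 without dICR/dICR myotube 1 and 919 without wild-type myotube 2. The replicate block left 7 calls in wild-type differentiation, Btc being lost (adjusted p = 0.162, edgeR), and 3 genes in all for genotype in myotubes. The libraries share only a number: no label says that it pairs them. Deviations of same-numbered wild-type libraries correlated at 0.43, 0.52, -0.41 and 0.52, negative in the pair that mixes the depth sets, so these values do not separate pairing from depth set. Those of dICR/dICR libraries, at -0.39 for both numbers, are equal by construction.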
